A study of Mus musculus with 4 samples.

Results

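The Hox genes encode homeodomain transcription factors and lie side by side in 4 chromosomal clusters. The 38 members described here comprise 10 genes of HoxA on chromosome 6, 10 of HoxB on chromosome 11, 9 of HoxC on chromosome 15 and 9 of HoxD on chromosome 2. They were taken by name, from a list drawn up with earlier results of these data known, and are 38 of the 22367 protein-coding genes of the GENCODE vM1 annotation (mm9, assembly NCBIM37) whose promoters were measured. The assay was ChIP-seq, in which DNA bound to an immunoprecipitated protein is sequenced, in E14TG2a.4 cells, a mouse embryonic stem (ES) cell line grown without feeder cells on gelatin in serum with LIF. Trimethylation of histone H3 at lysine 4 (H3K4me3) was profiled in 1 library from cells given a Jarid1b short hairpin RNA (shRNA) and in 1 library from cells given a scramble shRNA. Both shRNAs were delivered by PLKO.1 lentivirus for over 16 h, with puromycin from 48 h after transduction, and the labels describe no isolation of clones. A further 2 files hold ChIP reads for Jarid1b itself from cells labelled E14 ESCs, for which no shRNA is named. ChIP reads measure neither Jarid1b RNA nor protein, so the depth of the knockdown could not be read from these files.

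In vertebrate embryos the genes of a Hox cluster are switched on in the order in which they lie, low paralog numbers earlier and nearer the head, high numbers later and nearer the tail. In ES cells the clusters are the textbook case of bivalent chromatin, in which Polycomb-deposited H3K27me3 covers the locus while H3K4me3 marks its CpG-rich promoters, and the genes are transcribed little. Jarid1b, also named Kdm5b, is a demethylase that removes methyl groups from histone H3 lysine 4.

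The stretch of 250 bases that ends just before the transcription start site (TSS) is printed for the HoxA and HoxD members with the highest H3K4me3 ratio among those with enough reads to be compared (Hoxa11 and Hoxd9) and with the most scramble reads (Hoxa4 and Hoxd1). Hoxd4 was added after its values were seen, as a start with almost no H3K4me3 reads. Sequences are from NCBIM37 (mm9), 5′ to 3′ on the strand of the gene, with CpG dinucleotides in capitals. Hoxd9 lies on the plus strand at chr2:74535487-74535736, Hoxd1 on the plus strand at chr2:74600787-74601036, Hoxd4 on the plus strand at chr2:74559785-74560034, Hoxa11 on the minus strand at chr6:52196214-52196463 and Hoxa4 on the minus strand at chr6:52141753-52142002.
Hoxd9: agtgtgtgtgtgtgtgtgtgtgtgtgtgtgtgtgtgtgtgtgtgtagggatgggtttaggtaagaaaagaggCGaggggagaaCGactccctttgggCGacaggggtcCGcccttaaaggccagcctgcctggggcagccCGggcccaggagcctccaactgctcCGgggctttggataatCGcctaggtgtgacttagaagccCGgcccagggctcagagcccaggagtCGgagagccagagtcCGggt
Hoxd1: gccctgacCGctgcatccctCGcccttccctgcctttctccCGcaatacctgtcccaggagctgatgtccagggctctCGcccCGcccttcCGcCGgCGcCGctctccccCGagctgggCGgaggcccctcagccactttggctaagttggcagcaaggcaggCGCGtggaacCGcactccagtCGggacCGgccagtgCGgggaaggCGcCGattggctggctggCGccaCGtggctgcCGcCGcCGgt
Hoxd4: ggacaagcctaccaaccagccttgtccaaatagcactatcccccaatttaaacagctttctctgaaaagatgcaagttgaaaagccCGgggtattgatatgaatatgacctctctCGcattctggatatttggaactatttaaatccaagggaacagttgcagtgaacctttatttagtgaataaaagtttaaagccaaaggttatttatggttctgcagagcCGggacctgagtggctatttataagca
Hoxa11: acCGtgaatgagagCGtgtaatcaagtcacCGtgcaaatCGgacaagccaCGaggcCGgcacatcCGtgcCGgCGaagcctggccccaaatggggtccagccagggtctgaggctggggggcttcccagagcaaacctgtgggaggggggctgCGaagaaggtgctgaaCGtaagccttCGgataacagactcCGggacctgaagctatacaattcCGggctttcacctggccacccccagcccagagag
Hoxa4: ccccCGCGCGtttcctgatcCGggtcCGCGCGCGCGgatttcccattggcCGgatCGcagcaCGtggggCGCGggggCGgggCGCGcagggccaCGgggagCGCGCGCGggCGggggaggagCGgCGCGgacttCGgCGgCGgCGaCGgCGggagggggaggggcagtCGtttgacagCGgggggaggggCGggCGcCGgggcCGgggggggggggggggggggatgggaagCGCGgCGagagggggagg
These stretches hold 10 CpGs at Hoxd9, 24 at Hoxd1, 3 at Hoxd4, 14 at Hoxa11 and 41 at Hoxa4. Across the 38 members the median was 10.5 CpGs (2 to 41), against 8 over all 22367 promoters. Members whose H3K4me3 could be compared between libraries had a median of 14.5 CpGs (6 to 41), and those that could not had 8.5 (2 to 23). The motifs GCACA and GCACC, described for the DNA-binding ARID domain of human KDM5B, were searched on both strands, where a match to the first and a match to the second can overlap but never begin at the same base. At least 1 of the pair was present upstream of 16 of 38 members, and 60.7% of all promoters held at least 1 of them.

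After 1 read was kept per strand and position, 2635705 reads remained in the Jarid1b shRNA library and 5158330 in the scramble library, with 4336767 and 1602370 in the 2 Jarid1b files. Repeats of a position made up 7.56% of the shRNA rows and 31.5% of the scramble rows, and 4.42% and 17.8% of those inside Hox windows. A promoter window reached 1 kb to either side of the gene-level TSS, the outermost annotated start of the gene, and the genome-wide rate gave 2.06 reads per window for the shRNA library, 4.03 for the scramble library, and 3.39 and 1.25 for the Jarid1b files. Levels are given as RPM, reads scaled to 1000000 kept reads. Each condition has 1 library, so nothing was tested between conditions, and the 95% intervals (exact, Clopper-Pearson) cover counting error alone, as PCR copies cannot be told from separate molecules without molecular identifiers. The 2 Jarid1b files share fragments, as 16.8% of plus-strand positions of replicate 2 also occur in replicate 1, which is 9.52 times the median at other offsets, and they were counted as 1 sample.

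H3K4me3 over the Hox promoters was higher in the Jarid1b shRNA library than in the scramble library. Summed over the 38 windows, 670 shRNA reads (3.35 RPM per kb) stood against 356 scramble reads (0.908 RPM per kb), a 3.68-fold ratio or 1.88 on the log2 scale (1.69 to 2.07). The level in RPM was higher in the shRNA library at 31 of 38 members. The share of all promoters with a higher level was not computed. Their median of 25 shRNA reads, against 31 scramble reads, was in RPM also the higher in the shRNA library. A promoter counted as enriched when a one-sided Poisson test against its background gave a Benjamini-Hochberg adjusted p below 0.05 over all 22367 promoters. H3K4me3 was enriched at 20 Hox promoters in the shRNA library, where 59.9% of all promoters were enriched, and at 14 in the scramble library, where 60.0% were. The 14 were all among the 20, and the 6 enriched in the shRNA library alone, as were 1.88% of all promoters, were Hoxa11, Hoxc8, Hoxc9, Hoxc11, Hoxd3 and Hoxd9.

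A ratio between libraries was computed where a promoter was enriched in at least 1 library and the pair summed to 20 reads or more, which 18 Hox promoters met. It was called higher or lower when it was at least 2-fold with an interval that excluded 0 on the log2 scale. By that rule 13 of the 18 were called higher, against 24.0% of all 13273 compared promoters, and 0 were called lower, against 2.37%. The log2 ratio was above 0 at all 18, against 69.5% of all compared promoters, although Hoxc10 turned to -0.15 when ratios were scaled to their median over all promoters. The median log2 ratio was 2.12 for the 18 (1.11 to 2.82) and 0.41 for all compared promoters (0.38 to 0.43). Hoxa11, Hoxc11, Hoxd3 and Hoxd9 entered through the shRNA library alone and so had to differ. Among the 14 that were enriched in the scramble library, 9 were called higher, against 23.1% of all promoters so chosen. Promoters with a scramble count in the middle range of the compared Hox promoters (10 to 18.75 reads) were called higher in 45.8% of cases, with a median of 1.07.

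GC content moved with this ratio. In 2161287 background bins of 1 kb, away from starts and from enriched bins, the log2 ratio of the shRNA to the scramble library was -0.68 below 30% GC, 0.83 between 60% and 63%, and 2.02 in the 80 bins at 66% or more. Hox windows had a median GC content of 54.3% (44.9% to 67.2%), all promoters 51.2%, and among promoters in the middle of the Hox GC range 16.2% were called higher. With the background trend subtracted, an adjustment chosen after the data were seen, the ratio over the 38 windows was 1.02 on the log2 scale (0.83 to 1.21). The call was then made at 9 of 18 Hox promoters, against 5.91% of all, and the median was 1.11 (0.80 to 1.70), against -0.09 for all. Hoxa5, Hoxa11, Hoxb9, Hoxc11, Hoxc13, Hoxd3, Hoxd8, Hoxd9 and Hoxd13 were the 9. Without the 4 that entered through the shRNA library alone, 5 of 14 kept the call (Hoxa5, Hoxb9, Hoxc13, Hoxd8 and Hoxd13), against 5.20% of all promoters so chosen, and the median was 0.92 (0.60 to 1.30). Hoxa4, Hoxa7, Hoxa13 and Hoxd1 lost it, at 0.92, 0.92, 0.80 and 0.73, while Hoxc10 stood at -0.42. In bulk chromatin, a mark carried by fewer cells and less mark per cell cannot be told apart.

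**Figure D1:**
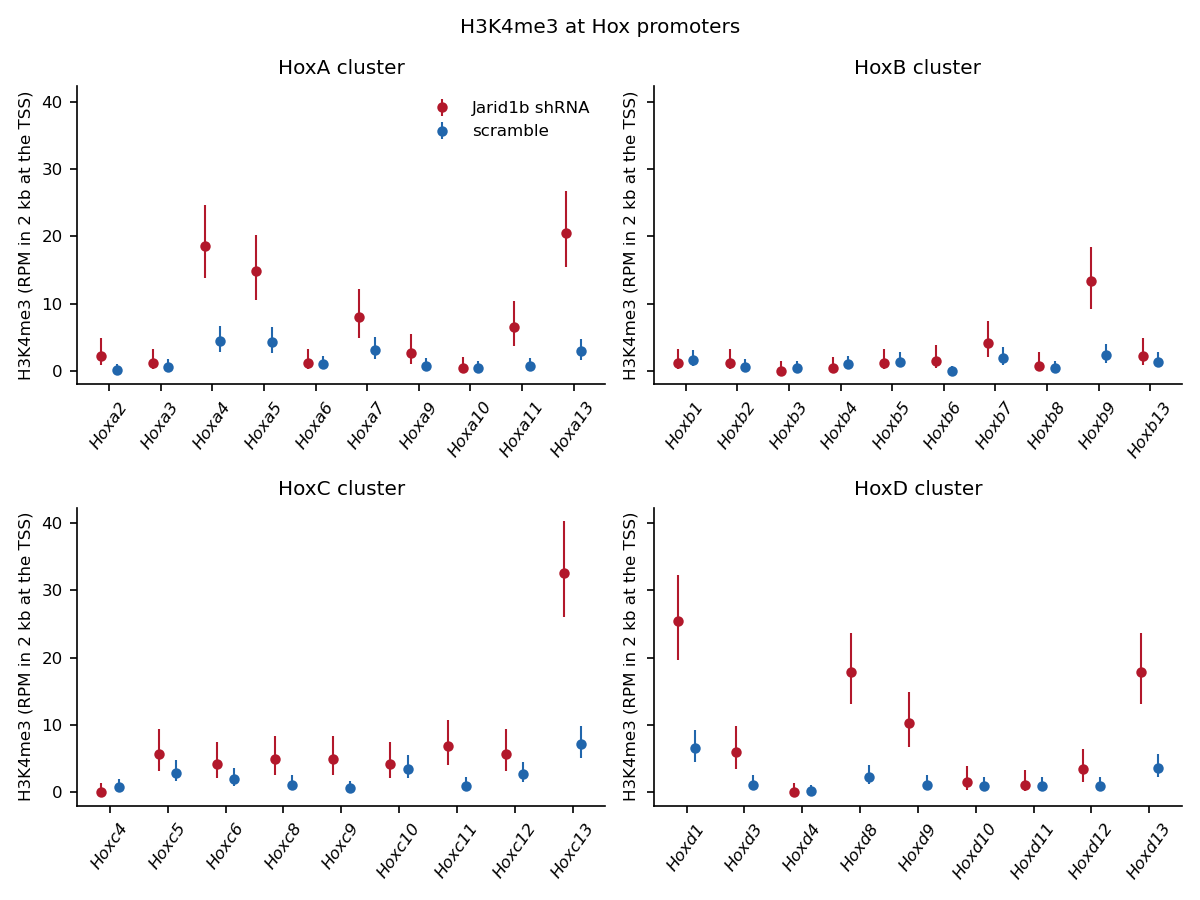
H3K4me3 in RPM (vertical axis) in the 2 kb window at each of the 38 Hox promoters, by cluster, in the Jarid1b shRNA library (red) and the scramble library (blue). Points are single libraries and bars are exact 95% counting intervals. The highest shRNA points are Hoxc13 at 32.6 RPM and Hoxd1 at 25.4 RPM, while 8 of the 10 HoxB members lie at or below 2.28 RPM in both libraries.

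Of the anterior genes, paralogs 1 to 4, 3 could be compared and all 3 were called higher, against 24.0% of all compared promoters. Hoxd1, a homeobox gene of the anterior end of HoxD, had 67 reads (25.4 RPM, 19.7 to 32.3) in the shRNA library and 34 reads (6.59 RPM, 4.56 to 9.21) in the scramble library, a log2 ratio of 1.95 (1.33 to 2.59). Its scramble count was the highest of HoxD, and the 2 intervals did not overlap. Hoxa4, which patterns cervical vertebrae, had 49 reads (18.6 RPM) in the shRNA library and 23 (4.46 RPM) in the scramble library, a log2 ratio of 2.06 (1.32 to 2.84). Hoxa4 had the most scramble reads of HoxA, and its upstream stretch printed above had the most CpGs of any member. Hoxd3, which shapes the first neck vertebrae, had 16 reads (6.07 RPM) in the shRNA library and 6 (1.16 RPM) in the scramble library, a log2 ratio of 2.38 (0.96 to 4.03). Only the shRNA count of Hoxd3 stood above background in the Poisson test, at an adjusted p of 0.0156, against 0.347 in the scramble library. Hoxd3 thus had to differ.

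Of the central genes, paralogs 5 to 8, 6 were compared and 3 were called higher, against 24.0% of all compared promoters. Hoxd8 had 47 reads (17.8 RPM) in the shRNA library and 12 (2.33 RPM) in the scramble library, a log2 ratio of 2.94 (2.0 to 3.99). This was the highest ratio of the 6 compared. Hoxa5, needed for development of the lung and airways, had 39 reads (14.8 RPM) in the shRNA library and 22 (4.26 RPM) in the scramble library, a log2 ratio of 1.79 (1.0 to 2.62). Hoxa7 had 21 reads (7.97 RPM) in the shRNA library and 16 (3.10 RPM) in the scramble library, a log2 ratio of 1.36 (0.35 to 2.40). It was the lowest ratio of HoxA among the 5 compared there, and it was no longer called with ratios scaled to the median, at 0.95.

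The other 3 central genes compared were not called, with a small count in both libraries. Hoxb7 had 11 reads in the shRNA library and 10 in the scramble library, a log2 ratio of 1.11 (-0.27 to 2.50). Hoxc6, a marker of thoracic levels of the axis, had the same pair of counts and the same ratio. Hoxc5 had 15 reads in each library, which at these depths is 5.69 RPM in the shRNA library and 2.91 RPM in the scramble library, a log2 ratio of 0.97 (-0.17 to 2.10). At each of the 3 the level was higher in the shRNA library, by less than the counting error.

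Of the posterior genes, paralogs 9 to 13, 9 were compared and 7 were called higher, against 24.0% of all compared promoters. Hoxd9, a gene of the forelimb, had the highest ratio of the 18, with 27 reads (10.2 RPM) in the shRNA library and 6 (1.16 RPM) in the scramble library, a log2 ratio of 3.14 (1.83 to 4.71). Its scramble count was near the genome rate (1.49-fold) and its shRNA count was 13.1-fold that rate. Hoxa11, required with its paralogs for kidney and forearm, had 17 reads (6.45 RPM) in the shRNA library and 4 (0.775 RPM) in the scramble library, a log2 ratio of 3.06 (1.44 to 5.09). An antisense transcript, Hoxa11as, starts inside the Hoxa11 window, and ChIP reads cannot be assigned to either strand's gene. Hoxc11 had 18 reads (6.83 RPM) in the shRNA library and 5 (0.969 RPM) in the scramble library, a log2 ratio of 2.82 (1.33 to 4.60), the highest of the compared HoxC promoters. At Hoxa11 and Hoxc11, as at Hoxd9, the scramble library alone would not have counted as enriched, so all of them had to differ.

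The paralogs numbered 13, which pattern the digits, the external genitalia and, for Hoxc13, hair and nails, were among the most heavily marked. Hoxc13 had the most reads of any member, 86 (32.6 RPM, 26.1 to 40.3) in the shRNA library and 37 (7.17 RPM, 5.05 to 9.89) in the scramble library, a log2 ratio of 2.19 (1.61 to 2.78). Hoxa13 had 54 reads (20.5 RPM) in the shRNA library and 15 (2.91 RPM) in the scramble library, a log2 ratio of 2.82 (1.97 to 3.75). Hoxd13 had 47 reads (17.8 RPM) in the shRNA library and 19 (3.68 RPM) in the scramble library, a log2 ratio of 2.28 (1.48 to 3.13). The fourth gene of that number, Hoxb13, which lies apart from the rest of HoxB, was not enriched in either library, with 6 and 7 reads. The Hoxa13 window was the richest in GC of all members, at 67.2%, and with the background GC trend subtracted its ratio was not called.

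Hoxb9, a gene of the thoracic skeleton and mammary gland, had 35 reads (13.3 RPM) in the shRNA library and 12 (2.33 RPM) in the scramble library, a log2 ratio of 2.51 (1.53 to 3.59). It was the single member of HoxB called higher, and had the most scramble reads of that cluster. Hoxc12 had 15 reads (5.69 RPM) in the shRNA library and 14 (2.71 RPM) in the scramble library, a log2 ratio of 1.07 (-0.08 to 2.23), and was not called. Hoxc10, which specifies lumbar motor neurons, had the lowest ratio of the 18, with 11 reads (4.17 RPM) in the shRNA library and 18 (3.49 RPM) in the scramble library, a log2 ratio of 0.26 (-0.97 to 1.42). The Hoxc10 intervals of the 2 libraries overlapped.

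The remaining 20 members were not compared. Hoxc8 and Hoxc9 were enriched in the shRNA library, each with 13 reads, against 6 reads at Hoxc8 and 3 at Hoxc9 in the scramble library, but fell short of 20 reads over both. The other 18 held 0 to 9 reads in the shRNA library and 0 to 8 in the scramble library, and no window among them was enriched. They were Hoxa2, Hoxa3, Hoxa6, Hoxa9, Hoxa10, Hoxb1, Hoxb2, Hoxb3, Hoxb4, Hoxb5, Hoxb6, Hoxb8, Hoxb13, Hoxc4, Hoxd4, Hoxd10, Hoxd11 and Hoxd12. Hoxb3, Hoxc4 and Hoxd4 had 0 reads in the shRNA library, which allows a level of up to 1.40 RPM, and Hoxb6 had 0 reads in the scramble library, which allows up to 0.715 RPM. Of the 20, the counting interval of the log2 ratio excluded 0 at Hoxa2 (3.55, 0.51 to 9.08), Hoxb6 (lower end 0.37), Hoxc8 (2.08, 0.59 to 3.77), Hoxc9 (3.08, 1.22 to 5.54) and Hoxd12 (1.82, 0.08 to 3.74), all in the direction of the shRNA library. At the other 15 a difference was not detectable at this depth. The share over all promoters not compared was not computed, and Hoxc8 and Hoxc9, enriched in the shRNA library alone, had to differ. The lower ends at Hoxb6 and Hoxd12 lay below 0.41, the median log2 ratio of all compared promoters. No GC trend was subtracted from these ratios.

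The clusters differed in the size of the ratio as counted at gene-level starts. Over the windows of HoxA, 200 shRNA reads stood against 95 scramble reads, a log2 ratio of 2.04 (1.68 to 2.41), with 5 of 5 compared promoters called higher. With HoxD it was 1 of the 2 clusters in which every compared promoter was called. Over all compared promoters 24.0% were called higher. Hoxa11 in HoxA, Hoxc11 in HoxC, and Hoxd3 and Hoxd9 in HoxD entered through the shRNA library alone and so had to differ. HoxB, the least marked, had 68 shRNA reads and 56 scramble reads, a ratio of 1.25 (0.72 to 1.79), with 1 of 2 called. HoxC had 182 shRNA reads and 112 scramble reads, a ratio of 1.67 (1.32 to 2.02), with 2 of 6 called. HoxD had 220 shRNA reads and 93 scramble reads, a ratio of 2.21 (1.85 to 2.58), with 5 of 5 called. In order of ratio HoxD came first, then HoxA, HoxC and HoxB. The difference in log2 ratio was -0.96 (-1.58 to -0.34) for HoxB minus HoxD, -0.54 (-1.03 to -0.05) for HoxC minus HoxD and 0.79 (0.17 to 1.41) for HoxA minus HoxB. The other 3 of the 6 differences had intervals that include 0, and no adjustment was made for the 6 pairs.

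Median window GC content followed the same rank at its top and bottom, at 57.4% in HoxD, 55.6% in HoxC, 53.4% in HoxA and 52.3% in HoxB. With the background GC trend subtracted the ratios were 1.19 in HoxD (0.84 to 1.56), 1.05 in HoxA (0.69 to 1.42), 0.99 in HoxC (0.64 to 1.34) and 0.68 in HoxB (0.15 to 1.22). All 4 intervals stayed above 0, and the intervals of all 6 differences between clusters then included 0, the widest difference being -0.51 (-1.13 to 0.11) for HoxB minus HoxD. At this depth the clusters could not be ranked once that trend was taken out.

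At gene-level starts, posterior genes carried more H3K4me3 per window than anterior genes in the shRNA library. The 16 posterior members had 353 shRNA reads (4.19 RPM per kb) and 161 scramble reads (0.975 RPM per kb), a log2 ratio of 2.10 (1.83 to 2.38). The 11 central members had 169 shRNA reads (2.91 RPM per kb) and 105 scramble reads (0.925 RPM per kb), a ratio of 1.66 (1.30 to 2.02). The 11 anterior members had 148 shRNA reads (2.55 RPM per kb) and 90 scramble reads (0.793 RPM per kb), a ratio of 1.69 (1.30 to 2.08). Posterior minus anterior was 0.42 on the log2 scale (-0.05 to 0.88), an interval that includes 0, and posterior minus central was 0.45 (0.00 to 0.89), whose lower end lay at 0.0035. Median window GC content was 57.4% in posterior, 53.4% in central and 51.5% in anterior members. With the background GC trend subtracted the first difference was 0.39 (-0.07 to 0.85) and the second 0.07 (-0.37 to 0.52). Over the 18 compared promoters, which share 2 libraries, the ratio and the paralog number were weakly related (Pearson r 0.22, Spearman rho 0.28). Anterior Hoxa3, Hoxc4 and Hoxd4 had 3, 0 and 0 shRNA reads at the gene-level start but 23, 21 and 23 at a further start. Posterior Hoxa9, Hoxa10 and Hoxd11 also had more at a further start, and group sums over further starts were not computed. The gene-level start of Hoxa3 lies between those of Hoxa6 and Hoxa7, so position did not always follow paralog number.

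**Figure D2:**
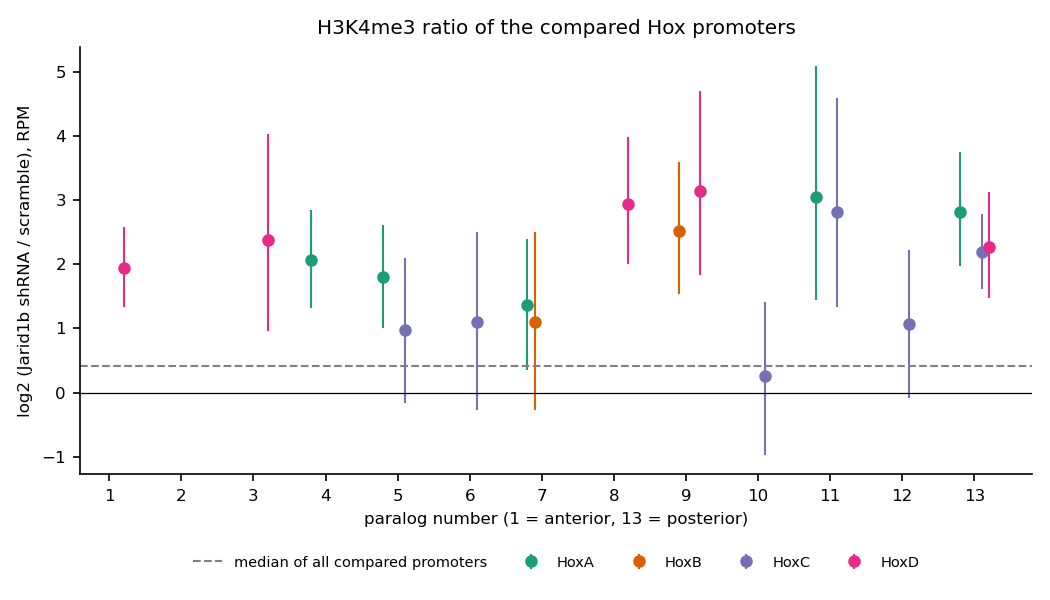
Log2 ratio of H3K4me3, Jarid1b shRNA over scramble (vertical axis), against paralog number from anterior to posterior (horizontal axis) for the 18 compared Hox promoters, coloured by cluster. Bars are exact 95% counting intervals and the dashed line is the median of all compared promoters, 0.41. The ratios run from 0.26 at Hoxc10 to 3.14 at Hoxd9, with the 3 compared anterior genes between 1.95 and 2.38.

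The difference also covered the cluster interiors and was small in the flanks. The 4 clusters, each from 5 kb before the first to 5 kb after the last member gene, held 529 bins of 1 kb. H3K4me3 was enriched in 47 of them (8.88%) in the shRNA library, against 1.43% of all genomic bins, and in 21 (3.97%) in the scramble library, against 1.71%. Of these, 20 were enriched in both libraries, 27 in the shRNA library alone and 1 in the scramble library alone. The shares of all genomic bins enriched in both or in either alone were not computed. Bins at member starts made up 23 of the 47 and 11 of the 21. Such bins numbered 29 of 109 in HoxA, 29 of 185 in HoxB, 27 of 127 in HoxC and 27 of 108 in HoxD.

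Relative to the genome rate, HoxA held 4.23-fold H3K4me3 in the shRNA library and 1.43-fold in the scramble library, HoxB 2.39-fold and 1.08-fold, HoxC 3.23-fold and 1.32-fold, and HoxD 3.96-fold and 1.06-fold. The log2 ratio over all bins was 1.56 in HoxA (1.35 to 1.77), 1.14 in HoxB (0.94 to 1.34), 1.29 in HoxC (1.08 to 1.5) and 1.90 in HoxD (1.67 to 2.14). In the 100 kb on each side it was -0.16 around HoxA (-0.37 to 0.05), 0.34 around HoxB (0.11 to 0.57), -0.04 around HoxC (-0.33 to 0.25) and 0.26 around HoxD (0.05 to 0.48). The flanks were poorer in GC, 40.2% to 46.1% on average, against 48.8% to 50.1% inside. Within GC classes, Hox bins that were neither enriched nor at a member start were compared with background bins. The sets differ in that background bins lay at least 5 kb from any gene-level start, whereas the Hox bins may hold other transcript starts. Between 42% and 57% GC the Hox log2 ratio was the higher in each class, at 0.33 against -0.30 for 42% to 45%, 0.36 against -0.14 for 45% to 48%, 0.55 against 0.05 for 48% to 51%, 1.28 (0.91 to 1.65) against 0.27 for 51% to 54%, and 1.59 (1.13 to 2.06) against 0.51 for 54% to 57%. In the class from 39% to 42% the Hox ratio was the lower, at -0.73 (-1.64 to 0.10) against -0.42. Classes with few Hox bins gave -0.62 against -0.59 (17 Hox bins, 36% to 39%), 1.45 against 0.70 (9 bins, 57% to 60%) and 0.79 against 0.83 (2 bins, 60% to 63%). Away from member starts the ratio over all bins was 1.36 in HoxA, 1.04 in HoxB, 0.89 in HoxC and 1.54 in HoxD.

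**Figure D3:**
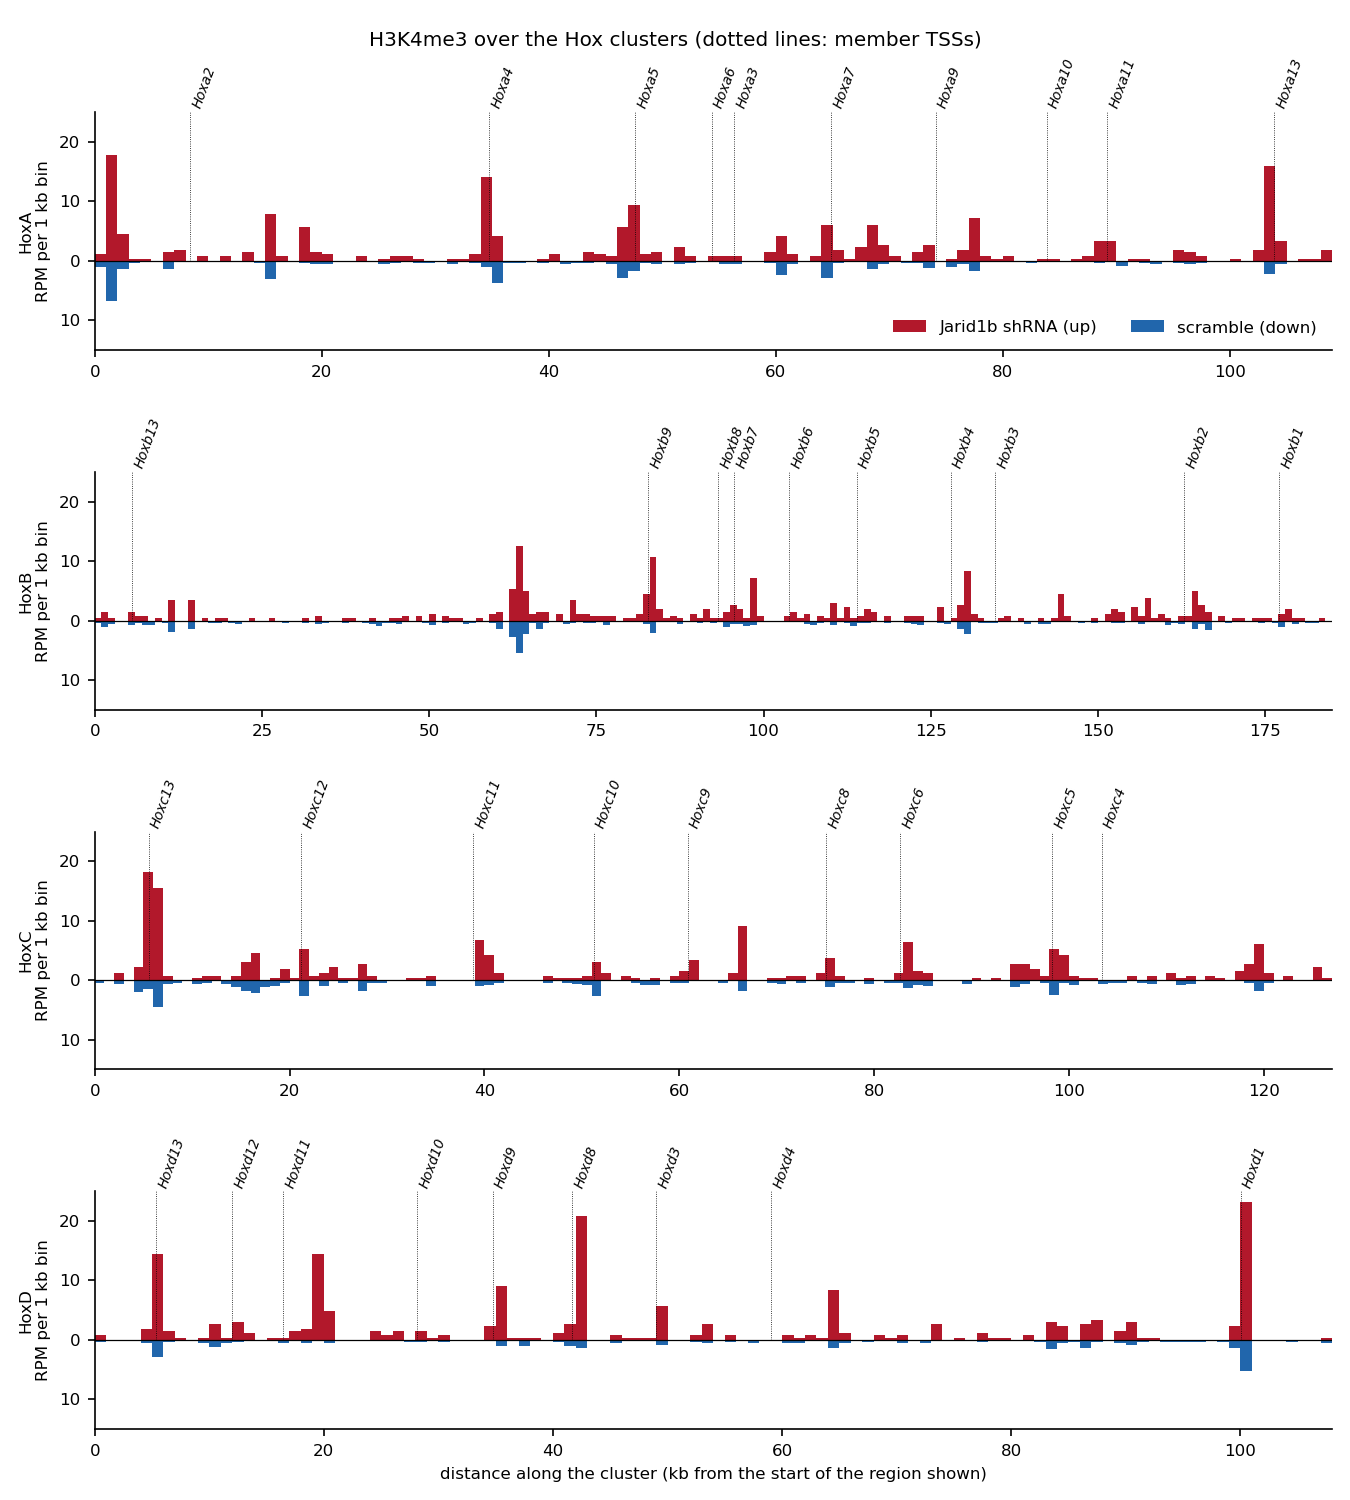
H3K4me3 in RPM per 1 kb bin (vertical axis) along the 4 Hox clusters, in kb from the start of the region shown (horizontal axis), with the Jarid1b shRNA library drawn upwards in red and the scramble library downwards in blue on the same scale. Dotted lines mark the gene-level starts of members. Red peaks sit at or just beside many starts, and several, such as the peak 3.05 kb from the Hoxd11 start, lie away from the annotated gene-level start.

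Several Hox genes have transcript starts far from the gene-level start, and several of the windows with few reads belong to such genes. This comparison was added after the data were seen. The 38 members have 71 distinct starts of protein-coding transcripts, of which 23, belonging to 12 members, lie over 1 kb from the gene-level start and from other members. Of these, 9 could be compared and all 9 were called higher, against 23.1% of all compared starts of protein-coding transcripts. With the background GC trend subtracted 7 of the 9 stayed called. The share of all such starts called with the trend subtracted was not computed, and that of gene-level promoters was 5.91%. Of the 9, 5 had to differ, since they were enriched in the shRNA library alone (both starts of Hoxd11, and those of Hoxa9, Hoxd3 and Hoxd4). The other 4, of Hoxa3, Hoxa7, Hoxa10 and Hoxc4, were enriched in the scramble library too, and 2 of these, Hoxa10 and Hoxc4, stayed called with that trend subtracted. The 9 windows are not independent, as the 2 starts of Hoxd11 and a pair from Hoxd3 and Hoxd4 share reads. In this way 6 members without a comparison at the gene-level start were called higher at another, 3 of them (Hoxa9, Hoxd4 and Hoxd11) at a start enriched in the shRNA library alone.

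Hoxd11, a limb and kidney gene, had 3 shRNA reads and 5 scramble reads at its gene-level start but 52 shRNA reads and 4 scramble reads at a start 3.04 kb away, a log2 ratio of 4.67 (3.23 to 6.60). It also carried 47 and 17 Jarid1b reads in the 2 files, enriched in both. That ratio exceeded every gene-level Hox ratio, and with the background GC trend subtracted it was 2.65 (1.21 to 4.58), the window holding 67% GC. Hoxa10, a gene of the uterus and hindlimb, had 22 shRNA reads and 9 scramble reads at a start 5.92 kb away, a ratio of 2.26 (1.08 to 3.56). Hoxa9, a gene of blood progenitors, had 21 shRNA reads and 11 scramble reads at a start 4.94 kb away, a ratio of 1.90 (0.78 to 3.10), and Jarid1b was enriched there in both files with 31 and 13 reads. Hoxc4 had 21 shRNA reads and 10 scramble reads at a start 15.5 kb away, a ratio of 2.04 (0.89 to 3.29). Hoxa3, a gene of the thymus and parathyroid, had 23 shRNA reads and 17 scramble reads at a start 40.7 kb away, a ratio of 1.40 (0.44 to 2.40), which was not called after the GC adjustment (0.97). Hoxd4 had 23 shRNA reads and 8 scramble reads at a start 5.10 kb away, a ratio of 2.49 (1.28 to 3.86), in a window that also covers a start of Hoxd3. The gene-level Hoxd4 start, whose sequence is printed above, had 0 shRNA reads and 1 scramble read.

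With every start taken into account, 14 members could not be compared at any, and 8 of them belong to HoxB. These 14 were Hoxa2, Hoxa6, Hoxb1, Hoxb2, Hoxb3, Hoxb4, Hoxb5, Hoxb6, Hoxb8, Hoxb13, Hoxc8, Hoxc9, Hoxd10 and Hoxd12.

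Around the 38 gene-level starts, both H3K4me3 profiles peaked just downstream. In the 200 base step centred 300 bases after the TSS, the shRNA library held 171 reads, 21.8-fold the genome rate (18.7 to 25.4), and the scramble library 68 reads, 4.44-fold (3.45 to 5.63). Upstream, centred 900 bases before the TSS, the shRNA library stood at 1.02-fold and the scramble library at 1.24-fold. The Jarid1b profiles also peaked after the TSS, with 103 reads at 500 bases after the TSS in replicate 1, 8.0-fold (6.53 to 9.70), and 39 reads at both 300 and 700 bases in replicate 2, 8.19-fold (5.83 to 11.2). In the last step, 4900 bases after the TSS, replicate 1 stood at 2.72-fold and replicate 2 at 4.20-fold, beside 2.55-fold H3K4me3 in the shRNA library and 0.457-fold in the scramble library. Single steps at this distance varied. At 4500 bases replicate 1 stood at 2.87-fold, replicate 2 at 2.73-fold, and H3K4me3 at 0.894-fold in the shRNA library and 1.24-fold in the scramble library.

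**Figure D4:**
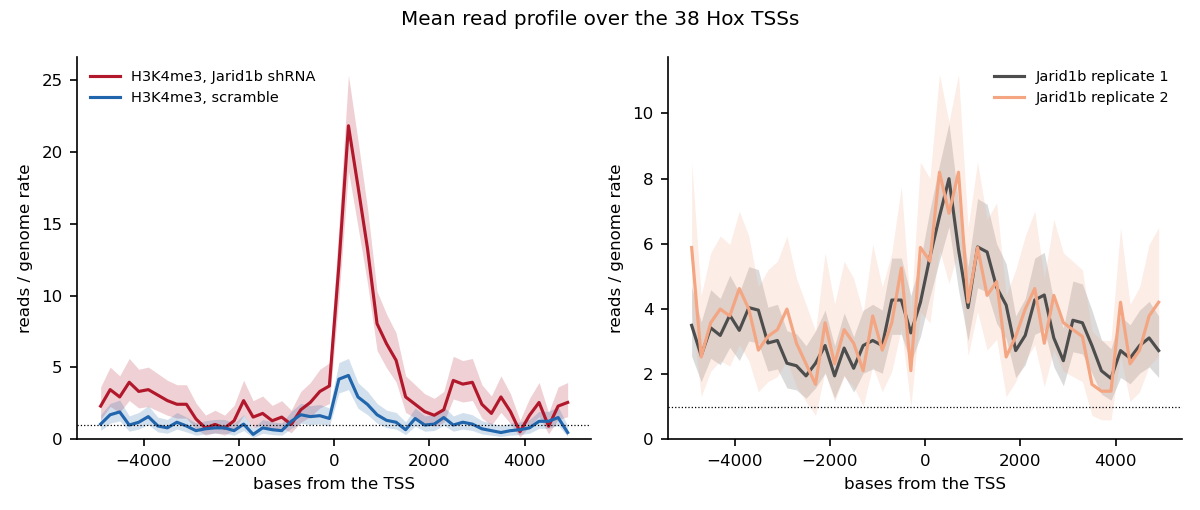
Reads relative to the genome rate (vertical axis) in 200 base steps by distance from the gene-level TSS in bases (horizontal axis), averaged over the 38 Hox promoters and oriented along the gene, for H3K4me3 (left) and for the 2 Jarid1b files (right). Shaded bands are exact 95% counting intervals and the dotted line marks the genome rate. The H3K4me3 peak reaches 21.8 in the Jarid1b shRNA library and 4.44 in the scramble library.

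With the rate over 10 kb to either side in the background, Jarid1b itself was called in both files at a minority of the Hox promoters. A total of 7 of 38 were enriched in both Jarid1b files, against 7.98% of all promoters. Counted by file, 19 were enriched in replicate 1 (26.8% of all promoters) and 7 in replicate 2 (10.7%), so every promoter enriched in the smaller file was also enriched in the larger. Against the genome rate alone, 25 of 38 were enriched in both files, as were 24.7% of all promoters. The 7 were Hoxa5, Hoxa11, Hoxb9, Hoxc11, Hoxc13, Hoxd8 and Hoxd13, of which 5 are posterior, 2 central and 0 anterior. The 7 were among the 13 of 18 compared Hox promoters called higher in H3K4me3 (24.0% of all compared promoters) and among the 9 called with the background GC trend subtracted (5.91%), but Hoxa11 and Hoxc11 entered that comparison through the shRNA library alone and so had to differ. The 5 of 16 posterior, 2 of 11 central and 0 of 11 anterior members were not set against each other in a test.

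Hoxd13 had 32 reads in replicate 1 (9.44-fold the genome rate, adjusted p = 1.03e-06) and 18 in replicate 2 (14.4-fold, adjusted p = 1.72e-05), by the exact one-sided Poisson test within each file. Hoxd8 had 36 reads in replicate 1 (10.6-fold) and 14 in replicate 2 (11.2-fold), and Hoxa11 had 20 (5.90-fold) and 18 (14.4-fold). These 3 had the highest folds in replicate 2. Hoxa5 had 20 reads in replicate 1 and 13 in replicate 2, Hoxb9 had 25 and 11, Hoxc13 had 16 and 9, and Hoxc11 had 15 and 9. Hoxa5 passed narrowly in replicate 1, with an adjusted p of 0.0492. By the same exact test, just outside the joint call lay Hoxb13 and Hoxc9, enriched in replicate 1 and each with 9 reads in replicate 2 at adjusted p of 0.0654 and 0.0772, and Hoxd9, with 28 reads in replicate 1 and 11 in replicate 2 (adjusted p = 0.0884). At Hoxb3, Hoxb4, Hoxc4 and Hoxd4, replicate 1 had 2 to 5 reads and replicate 2 had 0 to 3 (0 to 2.40-fold the genome rate).

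**Figure D5:**
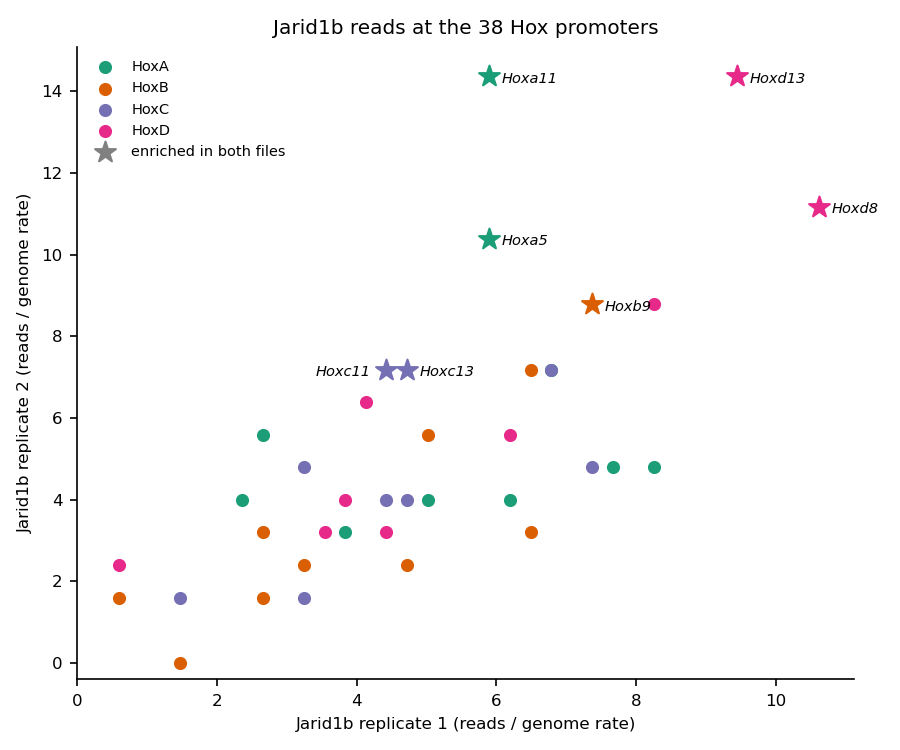
Jarid1b reads relative to the genome rate at the 38 Hox promoters, replicate 1 (horizontal axis) against replicate 2 (vertical axis), coloured by cluster. Stars mark the 7 promoters enriched in both files, and the point of Hoxa6 lies under that of Hoxc9. Hoxd8, Hoxd13 and Hoxa11 reach above 11 in replicate 2, and most of HoxB lies at the lower left.

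The whole Hox set stood above the genome rate in the Jarid1b files, with a median of 4.72-fold in replicate 1 and 4.39-fold in replicate 2, against 2.36-fold and 2.40-fold over all promoters. Among promoters in the middle of the Hox GC range the medians were 2.95-fold and 3.19-fold, and 7.44% were enriched in both files. GC content moved with this too: background bins held 0.356 replicate 1 reads per kb in the lowest GC class and 9.6 in the highest. Against background bins of the same GC content the Hox medians were 2.00-fold in replicate 1 (range 0.44 to 3.65) and 1.88-fold in replicate 2 (range 0 to 4.73), and those of all promoters 1.15-fold and 1.10-fold. With that background in the test, 2 members kept their call in both files, Hoxa5 and Hoxd13, against 0.402% of all promoters called in both files with that background. In 1 kb bins, 19 of the 529 were enriched in replicate 1 (3.59%, against 0.203% of the genome) and 2 in replicate 2 (0.378%, against 0.0479%). The same 2 were enriched in both, against 0.0322% of the genome. The first covers the Hoxd13 start and the other, with 16 and 12 Jarid1b reads, lies 0.769 kb from a distal transcript start of Hoxd3. There H3K4me3 gave 8 reads in each library, which in RPM is higher in the shRNA library.

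Across the 18 compared promoters, members with more Jarid1b reads had higher H3K4me3 ratios (Pearson r 0.62, Spearman rho 0.67). GC content also related to the ratio (r 0.58, rho 0.54), and to the Jarid1b reads of the 38 members (r 0.69, rho 0.68). Scramble reads related to the ratio negatively (r -0.38, rho -0.42), and the scramble count enters both measures. The 18 include 4 members enriched in the shRNA library alone, whose ratios had to be high. Over the other 14 the relation to the ratio was r 0.65 and rho 0.66 for Jarid1b reads, r 0.77 and rho 0.77 for GC content, and r 0.16 and rho 0.11 for scramble reads, so the negative sign of the last did not hold without those 4. These are descriptions over promoters of the same 4 libraries, which share base composition and depth, and the part of GC content in them was not tested.

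Genes that work with Hox proteins or neighbour their clusters were examined from a list of 17, of which 16 matched a single gene. Pbx, Meis and Pknox genes encode TALE homeodomain cofactors, Cdx genes encode activators of Hox expression, and Gsx1, Pdx1, Evx1 and Evx2 are Hox-related homeobox genes. Of 13 compared, 9 were called higher, against 24.0% of all compared promoters, and 0 lower. With the background GC trend subtracted 4 were higher (Gsx1, Cdx1, Meis2 and Evx1), against 5.91% of all, and 0 lower. Gsx1 had 33 shRNA reads and 9 scramble reads, a log2 ratio of 2.84 (1.75 to 4.09), and was enriched for Jarid1b in both files. Cdx1 had 20 shRNA reads and 8 scramble reads, a ratio of 2.29 (1.05 to 3.68), and had to differ, since it was enriched in the shRNA library alone (adjusted p = 0.0873 in the scramble library, exact Poisson test). Meis3 had 33 shRNA reads and 42 scramble reads, a ratio of 0.62 (-0.08 to 1.31), and was not called. Evx1 and Pknox2 were the other members of the list enriched for Jarid1b in both files.

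Marker promoters of ES cells and of other cell types moved between the libraries as well. Summed over 8 ES cell genes, H3K4me3 was 211 RPM in the shRNA library and 292 RPM in the scramble library, with 4 of 7 compared called lower (Nanog, Zfp42, Tdgf1 and Dppa5a), while Pou5f1 and Sox2 were marked in both libraries. Summed over 7 fibroblast genes it was 69.4 RPM in the shRNA library and 25.4 RPM in the scramble library, with 2 of 3 compared called higher, and Col1a1, Prrx1 and Postn at or below the genome rate in the scramble library. Over 4 neural progenitor genes the sums were 43.6 RPM in the shRNA library and 13.8 RPM in the scramble library, with 3 of 3 called higher. Over 6 mesoderm and endoderm genes they were 49.3 RPM in the shRNA library and 17.3 RPM in the scramble library, with 4 of 4 called higher. Over 5 liver and blood genes they were 2.28 RPM in the shRNA library and 3.88 RPM in the scramble library, with 0 compared. Among all compared promoters 24.0% were called higher and 2.37% lower. With the background GC trend subtracted, 5 ES cell genes were lower, and the calls higher were 0 fibroblast, 1 neural and 2 mesoderm or endoderm genes. Among all 13273 compared promoters, 5.91% were then called higher and 658 were called lower. The part of these cell types in the Hox ratios was not tested.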

How the data were processed

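H3K4me3 was measured in 1 library per shRNA and Jarid1b in 2 files. Reads were aligned to mm9 with Bowtie (version not given in the sources used here), per the submitters' processing notes. The labels' protocol describes 1 match per position, MACS peaks and IgG normalization, but the deposited files hold read positions, repeats included, with no peaks, and a score of 0 in every row, as deposited by the authors. The deposited positions were reduced to 1 read per strand and position, shifted 75 bases and counted in windows and 1 kb bins. Enrichment was an exact one-sided Poisson test against whichever was higher, the genome rate or the rate over 10 kb to either side, with Benjamini-Hochberg adjustment. Ratios have exact Clopper-Pearson 95% intervals, and differences between gene groups a normal approximation to log counts. Both cover counting error only, and the spread between cultures was not measured. The scripts were checked on simulated data. Python 3.11.15, numpy 2.4.6, scipy 1.17.1, pandas 2.3.3 and matplotlib 3.10.9 were used.

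The members and lists were chosen with earlier results of these data known. Described in full are, per cluster, the members with the highest and lowest ratio and the most scramble reads, every Jarid1b-enriched member, every compared member not called, and the partners with the 2 highest and 2 lowest ratios, of which 1 is not reported here. Other called members were added. Hoxa3 has 2 gene identifiers 3 bases apart, of which ENSMUSG00000079560 was used. Gsx2 and Sox1 matched no single gene and were left out, and other Hox genes are not analysed here. Alternatives covered the window, shift, repeats, scaling, GC content, read minimum, fold, background and threshold.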

Additional observations from a re-analysis of the deposited data

How the results depend on the processing

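Of 118 alternatives over 14 results, 92 left the value within its error or a count within 1.5 times, 26 moved it and 0 turned its direction. Only log2 ratios could turn direction, as counts have none. With windows of 500 bases each side, 7 Hox promoters were called higher (against 29.8% of all promoters) and 3 were Jarid1b enriched (against 5.83% of all). Scaled to the median ratio of all promoters, which lowers every log2 ratio by 0.41, the log2 ratios were 1.63 in HoxA, 1.26 in HoxC and 1.80 in HoxD, and 1.28, 1.25 and 1.69 for paralogs 1 to 4, 5 to 8 and 9 to 13. With the GC trend over all promoters removed they were 1.62 in HoxA and 1.58 in HoxD, and 1.18 for paralogs 1 to 4 and 1.59 for paralogs 9 to 13. With the GC trend of background bins removed, chosen after seeing the data, they were 1.05 in HoxA, 0.68 in HoxB, 0.99 in HoxC and 1.19 in HoxD, and 0.75, 1.06 and 1.14 for the 3 paralog groups. With that trend removed and enrichment in the scramble library required, also chosen after seeing the data, 5 members were called higher and the median log2 ratio was 0.92. Against the genome rate alone, 25 Hox promoters were Jarid1b enriched (24.7% of all promoters) and 82 bins held H3K4me3 in the shRNA library. At an adjusted p of 0.01 there were 4 Jarid1b-enriched members, and against bins of the same GC content 2. Leaving out a Jarid1b file gave 7 to 19, with 7 without replicate 1 and 19 without replicate 2. Using every transcript start, chosen after seeing the data, 19 members were called higher, some only at starts enriched in the shRNA library alone, and 9 were Jarid1b enriched. Shares over all genes, promoters or bins were not computed for that rule, for the 0.01 threshold or for the 82 bins. The causes of these shifts were not tested. No paired analysis was possible because each H3K4me3 condition has 1 library. Depth limits the 18 members with 9 reads or fewer in both libraries.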

Other observations

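Several enriched H3K4me3 bins lay away from every gene-level start of the members. In HoxD the bin at the further start of Hoxd11 held 38 reads in the Jarid1b shRNA library and 1 in the scramble library, at 70.7% GC, and the bin at the further start of Hoxd4 held 22 and 7. In HoxB a bin 2.02 kb from the microRNA gene Mir10a held 22 shRNA reads and 12 scramble reads, and a bin 2.93 kb past the Hoxb7 start held 19 and 4. Bins 9.86 kb past the Hoxb3 start and 5.45 kb before the Hoxb2 start held 12 and 10 shRNA reads, and 0 scramble reads each. Bins with 0 or 1 scramble reads could be enriched only through the shRNA library and so had to differ. In HoxC a bin 5.63 kb past the Hoxc9 start held 24 shRNA reads and 9 scramble reads.

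Ratios at noncoding or uncharacterised starts varied. The bin at 2700086A05Rik in HoxA held 15 shRNA reads and 2 scramble reads, whereas the highest bin at Gm53 in HoxB held 33 and 28. A bin at a start of Hoxa7 was enriched in the scramble library alone, with 11 shRNA reads and 12 scramble reads. These are raw counts, from 2635705 kept reads in the shRNA library and 5158330 in the scramble library. In RPM the Gm53 and Hoxa7 bins were higher in the shRNA library.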
